A study of Mus musculus with 80 samples.

Results

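The enzymes of glycolysis, gluconeogenesis and the pyruvate dehydrogenase and Krebs steps were followed in mouse kidney across age and sex. Members were the cDNA clones with exactly 1 gene symbol that matched a fixed set of 25 symbol patterns (hexokinases to lactate dehydrogenases, the gluconeogenic enzymes, the pyruvate dehydrogenase group and the Krebs cycle), with Pdha1, Idh3b and Suclg1 left out by that rule. They came to 51 clones of 36 genes, among 16896 clones in all, of which 9663 carried 1 symbol (7151 genes). Of the 51, 31 lay on filter set A and 20 on set B, and 11 genes had more than 1 clone. Another 7 clones list a member gene beside a second gene and are not counted. The rule itself used symbols and no measured value, although it was written with earlier results of these data known.

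The kidneys came from 40 untreated C57BL/6 mice, an inbred laboratory strain, of both sexes and fed ad lib. There were 8 groups of 5 mice: males and females of 17 to 44, 169 to 194, 476 to 499 and 704 to 743 days. Within the youngest group 5 mice were 17 to 21 days old and 5 were 33 to 44 days old. Whole kidney RNA of each mouse was hybridised to 2 nylon filters of different clones, and the value of a clone is a score in units of the array's own SD, called array SDs below.

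Glycolysis splits glucose into pyruvate, which lactate dehydrogenase turns into lactate or pyruvate dehydrogenase carries into the Krebs cycle as acetyl-CoA. Gluconeogenesis runs the path backwards, with its own enzymes at the irreversible steps. In the kidney the proximal tubule is known for making glucose and for burning fatty acids and lactate rather than glucose, while the medulla is known for relying on glycolysis. A whole kidney mixes these cell types, so fewer cells of a type and less RNA per cell cannot be told apart.

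The sequences below are the 250 bases before the start of Ldha, Gapdh and Mdh1, the 3 genes with the lowest unadjusted p among members in the age comparisons, chosen after their values were seen. They come from RefSeq (GRCm38.p6), run 5′ to 3′ on the gene's strand and lie at chr7:46845554-46845803 (Ldha, plus strand, the first of 2 listed starts), chr6:125165774-125166023 (Gapdh, minus strand) and chr11:21571935-21572184 (Mdh1, minus strand). Capitals mark each ACGTG or GCGTG on either strand (CACGT or CACGC as printed), the core letters bound by hypoxia-inducible factors, and overlapping matches run together. These letters were also chosen after values were seen.
Ldha: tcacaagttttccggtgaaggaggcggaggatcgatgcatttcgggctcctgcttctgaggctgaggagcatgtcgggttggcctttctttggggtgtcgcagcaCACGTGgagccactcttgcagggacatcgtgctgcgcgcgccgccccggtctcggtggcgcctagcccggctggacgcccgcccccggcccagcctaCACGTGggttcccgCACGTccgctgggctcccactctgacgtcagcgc
Gapdh: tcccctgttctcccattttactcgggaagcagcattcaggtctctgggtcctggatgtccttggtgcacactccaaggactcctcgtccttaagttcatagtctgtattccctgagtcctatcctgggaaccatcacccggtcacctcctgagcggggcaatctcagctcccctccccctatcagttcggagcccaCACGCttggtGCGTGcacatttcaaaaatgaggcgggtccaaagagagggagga
Mdh1: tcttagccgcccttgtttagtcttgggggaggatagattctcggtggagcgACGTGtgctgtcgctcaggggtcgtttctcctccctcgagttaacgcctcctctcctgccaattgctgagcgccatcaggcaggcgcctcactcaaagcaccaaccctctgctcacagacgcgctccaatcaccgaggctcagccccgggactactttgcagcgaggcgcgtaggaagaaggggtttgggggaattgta

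Ldha had 5 matches in this window, with first bases 145, 144, 48, 47 and 34 bases before the start, where adjoining pairs are the 2 strands of a single CACGTG. Gapdh had 2 matches, starting 54 and 44 bases before the start, and Mdh1 had 1, starting 199 bases before it. Of the windows listed for member genes (54 windows, 35 of the 36 genes), 75.9% held such letters, against 38.6% of all 32851 promoter windows of the same length. Genes with several listed starts count more than once, the windows were not matched for base composition, and the gap was not tested. A match is a description of the letters and not a bound site.

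Averaged over its pairings with the rest of a set, an array's correlation lay between 0.891 and 0.965 (set A) or 0.916 and 0.976 (set B). In 5 mice an array lay below the others by this measure (males of rounds 1 and 5 at 17 to 44 days, a male of round 4 and a female of round 5 at 169 to 194 days, and a female of round 4 at 704 to 743 days). A round is 1 of 5 blocks of serial numbers in the titles, and every round holds a male and a female from each group of ages. A couple is the pair of mice that share a round and a sex (10 for each age comparison) or a round and an age group (20 for sex). For proximal tubule markers, clones were present for Lrp2, Cubn and Miox, 3 of the 10 genes listed. These 4 clones ranked at percentiles 71.4 to 94.1 of brightness. Loop of Henle and distal tubule clones, 4 clones of 1 gene of the 7 listed, ranked at 20.7 to 72.3. Podocyte clones ranked at 15.2 to 52.1 and liver clones at 54.6 to 87.25. Such ranks compare different clones, so they cannot check the tissue label. Clones of the adrenal genes Cyp11a1 and Star ranked at 86.1 and 94.0, and the part of neighbouring tissue in the results was not tested.

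No member passed the test in any of 6 comparisons (limma, adjusted p under 0.05 over both sets). Among all clones the share called was 0.0% for 169-194 against 17-44 days, 0.0% for 704-743 against 169-194 days, 0.0% for the slope of score on age, 0.107% (18 clones) for male against female, 0.0% for a male-female gap changing with age, and 0.0% for 33-44 against 17-21 days. At an unadjusted p under 0.05 there were 3 of 51 members from youngest to young adult, where 5.08% of all clones met this level. From young adult to oldest there were 4 of 51, all lower, against 2.36% of all clones. Of these 4, 2 were clones of Mdh1, whose brightest clone was higher in the oldest (0.117 ± 0.0816). Of all 16896 clones, 398 met this level in the main fit. With round as a block they were 676, without the 5 mice with an array below the others 660, and with arrays weighted by quality 938. The count of members is given for the main fit alone. The slope gave 2 (5.2% of all clones), sex gave 3 (4.48%), the varying sex difference gave 1 (3.23%) and the split of the youngest mice gave 2 (4.3%). Values below are therefore differences that did not pass, given with their errors.

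The signs of the members leaned one way in both comparisons of adjoining text below, young adult with youngest and oldest with young adult. These leans were described by counts and were not tested. From 17-44 to 169-194 days, 35 of 51 clones were higher and the median member differed by 0.0245 array SD, against a median of 0.0022 and 48.97% lower over all clones, and 0.00828 and 45.65% lower over the 9663 clones with 1 symbol, from which members were drawn. From 169-194 to 704-743 days, 34 of 51 were lower, with a median of -0.037, against 49.41% lower and a median of 0.000988 over all clones (49.37% and the same median over those with 1 symbol). Both comparisons use the same 10 mice of 169 to 194 days, so these signs are not independent of each other. Without the 5 mice with outlying arrays 35 were higher in the first and 31 lower in the second (medians 0.0281 and -0.0306), and with arrays weighted by quality 34 and 31 (medians 0.019 and -0.0111). With 1 mouse left out at a time the counts ran from 28 to 37 and from 30 to 37; these recounts were chosen after seeing the data. With the brightest clone of each gene alone, 24 of 36 were higher in the first and 25 of 36 were lower in the second. Median standard errors were 0.0724 array SD for a member's age difference and 0.0512 for sex, so most single differences lay within their error. By the slope on age 31 of 51 members were lower (median -0.00722), against 49.73% of all clones and 47.21% of those with 1 symbol. From 17-21 to 33-44 days 31 of 51 were lower (median -0.0334), against 52.36% of all clones and 51.98% of those with 1 symbol.

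Clones of cell type markers also differed in these comparisons without any being called (limma), and their part in the members' signs was not tested. Between youngest and young adult, 4 of 4 proximal tubule clones were higher (median 0.0415). The mean score over that list was 0.983 to 1.19 per mouse in the youngest and 1.01 to 1.18 in young adults. Endothelial (2 of 2, median 0.107), macrophage (2 of 2, 0.0969) and liver clones (3 of 3, 0.02) were also higher there. Lower were 3 of 4 loop of Henle and distal tubule clones (median -0.0491), all 4 being clones of 1 gene of the 7 listed. Also lower were 2 of 2 adrenal clones (-0.0715) and the collecting duct clone (-0.0902). The other lists were split. Between young adult and oldest, 11 of 14 clones of the erythroid list were lower (median -0.0923), all of these being clones of the haemoglobin gene Hba-a1, and the mean score of the list ran from -0.0266 to 0.547 in young adults and from -0.0862 to 0.274 in the oldest. In the same comparison 2 of 2 macrophage clones (Lyz2 and C1qa) were higher (median 0.0883; 0.185 to 0.523 in the oldest, -0.0075 to 0.353 in young adults). Both B and plasma cell clones were higher too (median 0.207; -0.0251 to 0.307 in the oldest, -0.218 to 0.127 in young adults), with the immunoglobulin gene Ighm at 0.342 ± 0.0689 in 10 of 10 couples (limma adjusted p = 0.241). The proximal tubule clones were split there, 2 higher and 2 lower (median 0.00931). Both podocyte clones were lower (median -0.0875) and the collecting duct clone was higher (0.0403).

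**Figure D1:**
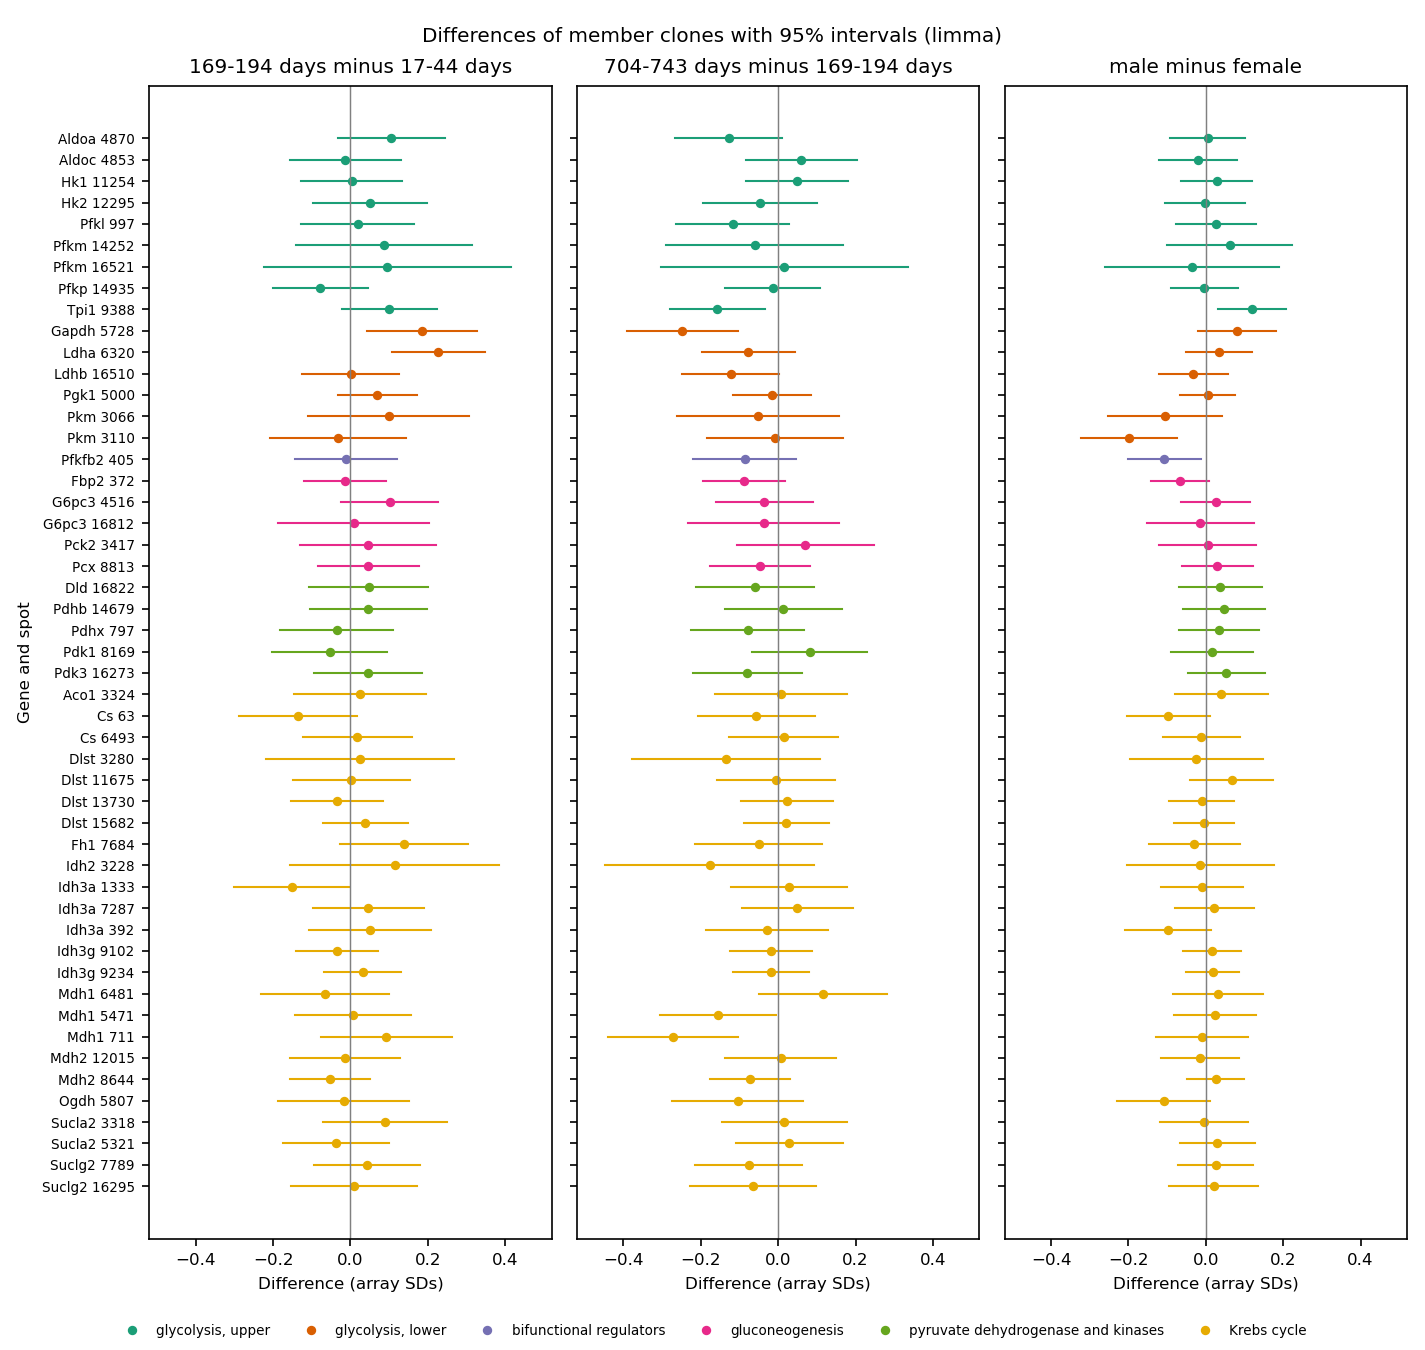
Difference of each member clone (rows, gene and spot number) in array SDs with its 95% interval, coloured by role, for the young adult minus youngest, oldest minus young adult, and male minus female comparisons. Most intervals cross 0; on the left those of Ldha and Gapdh lie above 0 and that of Idh3a spot 1333 below, in the middle those of Gapdh, Tpi1 and 2 Mdh1 clones lie below, on the right that of Tpi1 lies above and those of Pkm spot 3110 and Pfkfb2 below, and the Pfkfb3 clone, whose standard error is 0.384 in the age comparisons, is not drawn.

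The lower part of glycolysis, from glyceraldehyde 3-phosphate to lactate, held the members that were most above the youngest mice in young adults, though none passed. Ldha encodes the lactate dehydrogenase subunit A, which favours making lactate. Its clone (spot 6320, the clone's number on the arrays; chromosome 7) had scores of 1.03 at the lowest, 1.18 at the median and 1.36 at the highest of the 10 mice of 17 to 44 days. At 169 to 194 days these were 1.18, 1.42 and 1.66, at 476 to 499 days 1.29, 1.43 and 1.57, and at 704 to 743 days 1.11, 1.35 and 1.58. The youngest mice sat lowest, and all neighbouring age groups overlapped. Between youngest and young adult the difference was 0.227 ± 0.0593 array SD (SE, unadjusted p = 0.00045, limma adjusted p = 0.933), positive in 8 of 10 couples and in all 5 rounds (0.0573 to 0.374). In males it was 0.341 and in females 0.113, and the difference between them was not tested on its own for this pair of ages. The test of a sex difference varying over all 4 ages gave F = 1.33 (unadjusted p = 0.279). Splitting the youngest mice, the 5 of 17 to 21 days had a mean of 1.18 ± 0.14 (SD) and the 5 of 33 to 44 days 1.19 ± 0.0738. From young adult to oldest the Ldha clone differed by -0.0771 ± 0.0593 (5 of 10 couples). Its slope was 0.0638 ± 0.0333 array SD per year (unadjusted p = 0.0622), the lowest p among positive slopes of members, and 0.0323 without the 5 mice of 17 to 21 days.

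Gapdh, glyceraldehyde-3-phosphate dehydrogenase, is the step of glycolysis that makes NADH and is widely used as a reference gene. Its clone (spot 5728, chromosome 6) had scores of 0.355, 0.458 and 0.658 (lowest, median and highest) at 17 to 44 days. At 169 to 194 days they were 0.354, 0.693 and 0.912, at 476 to 499 days 0.237, 0.526 and 0.738, and at 704 to 743 days 0.0658, 0.452 and 0.588. Young adults were highest on average, with 3 males and 2 females above every mouse of the youngest and the oldest group. The young adults exceeded the youngest by 0.185 ± 0.0708 (unadjusted p = 0.0127, adjusted p = 0.933), in 9 of 10 couples. The oldest mice lay below the young adults by 0.248, that is a difference of -0.248 ± 0.0708 (unadjusted p = 0.00119, adjusted p = 0.9997 by limma), in 8 of 10 couples and all 5 rounds (-0.526 to -0.0335). The same difference was -0.237 in males and -0.258 in females, and males were 0.08 ± 0.0501 above females over all ages (12 of 20 couples).

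The other clones of lower glycolysis were nearer to 0. Pgk1, phosphoglycerate kinase, had a narrow spread (1.94 ± 0.0896, SD over 40 mice) and differences of 0.0697 ± 0.05 and -0.0152 ± 0.05 in the 2 age comparisons. Ldhb, the subunit that favours turning lactate into pyruvate, was level from the youngest to young adults (0.000163 ± 0.0623). Its oldest mice ranged from -0.331 to -0.027 with a median of -0.143, against -0.323 to 0.192 with a median of 0.0143 in young adults, a difference of -0.123 ± 0.0623 (8 of 10 couples, unadjusted p = 0.0561). The 2 clones of Pkm, pyruvate kinase, moved by 0.0987 ± 0.103 (spot 3066) and -0.0316 ± 0.0868 (spot 3110) in the first age comparison, and by -0.0522 ± 0.103 and -0.00804 ± 0.0868 in the second. In the comparison of oldest with young adult, 6 of 6 clones of this group were lower, with a median of -0.0646, and 1 of 6 met an unadjusted p under 0.05. Without the mice with outlying arrays 5 of 6 were lower, and with 1 mouse left out at a time 3 to 6.

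**Figure D2:**
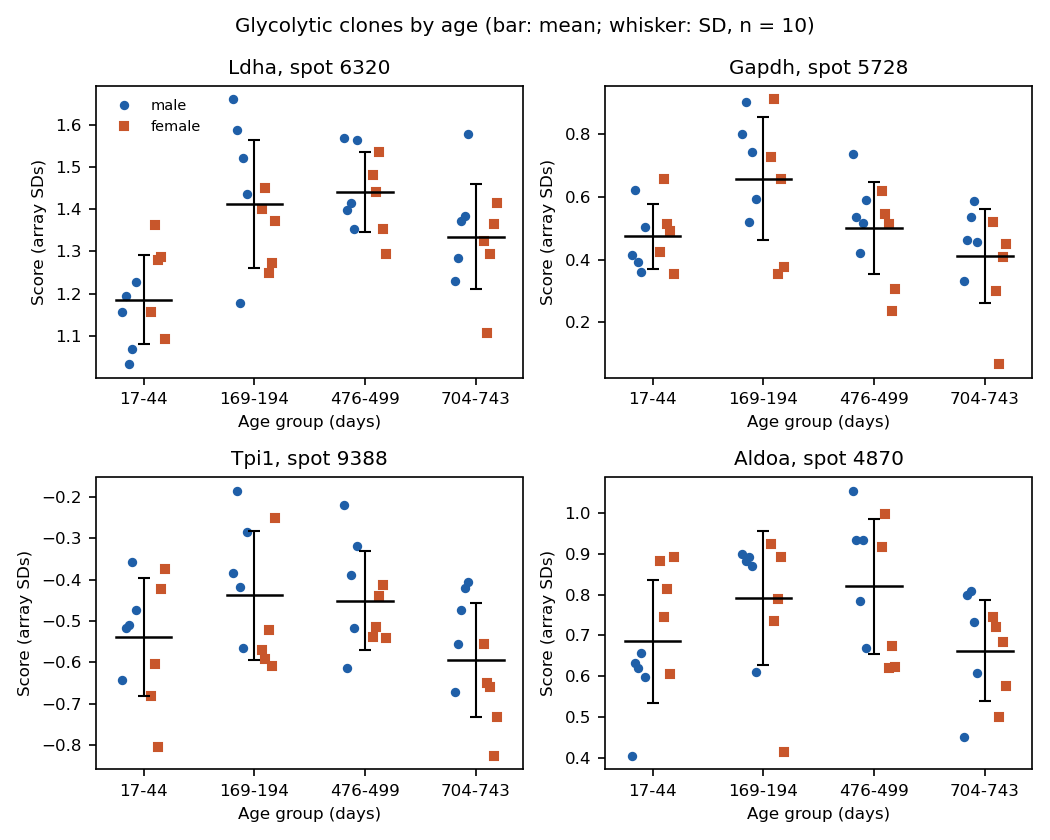
Score in array SDs of each mouse for the clones of Ldha, Gapdh, Tpi1 and Aldoa in the 4 age groups, males as circles and females as squares, with the mean (bar) and SD (whisker) of 10 mice. The youngest mice are lowest for Ldha (mean 1.19), the young adults are highest for Gapdh (mean 0.659), and the oldest have the lowest means for Gapdh (0.412), Tpi1 (-0.595) and Aldoa (0.663); in all panels the age groups overlap.

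In upper glycolysis, from hexokinase to triosephosphate isomerase, 7 of 9 clones were higher in young adults than in the youngest (median 0.0502) and 6 of 9 were lower in the oldest than in young adults (median -0.0479). With array weights these were 5 of 9 in both (medians 0.0202 and -0.0178), without the mice with outlying arrays the second median was -0.0747, and with 1 mouse left out they ran from 5 to 8 and from 5 to 7. Tpi1, triosephosphate isomerase (spot 9388, chromosome 6), had scores of -0.608, -0.47 and -0.185 (lowest, median and highest) in young adults and -0.826, -0.603 and -0.405 in the oldest. The distributions overlapped, with a difference of -0.157 ± 0.0607 (unadjusted p = 0.0137, adjusted p = 0.9997 by limma), in 8 of 10 couples and all 5 rounds (-0.301 to -0.0357). The young adult female of round 5, with an outlying array, had -0.252, against -0.608 to -0.521 in the other females of that age. Over the alternative fits listed at the end the difference ran from -0.182 to -0.108. Aldoa, the main aldolase of most tissues, showed a difference of the same sign that did not reach that level: -0.128 ± 0.0681 (9 of 10 couples, unadjusted p = 0.0675). Its clone was also 0.105 ± 0.0681 higher in young adults than in the youngest (7 of 10 couples).

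None of the rate-setting enzymes of upper glycolysis reached an unadjusted p under 0.05 in the 2 age comparisons. Hk1, the hexokinase of most tissues, differed by 0.00289 ± 0.0648 and 0.0487 ± 0.0648 in the 2 age comparisons, and Hk2, a hexokinase known from muscle and fat, by 0.0502 ± 0.073 and -0.0479 ± 0.073. For phosphofructokinase, the liver-type Pfkl had 0.0182 ± 0.072 and -0.117 ± 0.072, and the platelet-type Pfkp -0.0786 ± 0.0606 and -0.0141 ± 0.0606. The muscle-type Pfkm had 2 dim clones, among the lowest 25% of clones in mean score, with 0.0868 ± 0.113 and -0.0609 ± 0.113 (spot 14252) and 0.0954 ± 0.157 and 0.0163 ± 0.157 (spot 16521). Aldoc, the brain-type aldolase, gave -0.0136 ± 0.0707 and 0.0602 ± 0.0707, the latter among the 3 lowest p of positive members in the comparison of oldest with young adult. By sex these enzymes differed by -0.0348 to 0.0623 array SD, with Pfkm supplying both ends.

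Of the bifunctional enzymes that make and break fructose 2,6-bisphosphate, the activator of phosphofructokinase, Pfkfb2 (spot 405, the form known from heart and kidney) had 1.02 ± 0.143 over 40 mice. It differed by -0.0114 ± 0.0657 and -0.0866 ± 0.0657 (8 of 10 couples) in the 2 age comparisons. Pfkfb3 (spot 2287), the form known from proliferating cells, lay at -2.75 ± 0.893, among the dimmest of all clones (percentile 0.568), with values from -5.06 to -0.89. Its differences of 0.167 ± 0.384 and 0.263 ± 0.384 were smaller than their standard errors.

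Gluconeogenesis was represented by 5 clones of 4 genes, and the enzymes best known from the proximal tubule (Pck1, Fbp1 and G6pc) are not analysed here. Pcx, pyruvate carboxylase, which makes oxaloacetate from pyruvate, gave 0.0466 ± 0.0645 and -0.0469 ± 0.0645. Pck2, the mitochondrial phosphoenolpyruvate carboxykinase, gave 0.0454 ± 0.0875 and 0.0701 ± 0.0875. G6pc3, a glucose-6-phosphatase found in most tissues, gave 0.101 ± 0.0618 and -0.0359 ± 0.0618 at spot 4516, and 0.00805 ± 0.0966 and -0.037 ± 0.0966 at spot 16812. Fbp2, the muscle form of fructose-1,6-bisphosphatase, was the member of this group nearest to the level of unadjusted p. In young adults its scores were 0.517, 0.615 and 0.758 (lowest, median and highest), and in the oldest 0.444, 0.498 and 0.664. The difference was -0.0887 ± 0.0525 (8 of 10 couples), and the slope was -0.0501 ± 0.0253 per year (unadjusted p = 0.0538). In the oldest group, 4 of 5 clones of gluconeogenesis were lower than in young adults (median -0.037; 3 of 5 and -0.00327 with array weights), and none met an unadjusted p under 0.05 (limma), as 0 of 5 did after adjustment.

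The pyruvate dehydrogenase complex joins glycolysis to the Krebs cycle, and its kinases switch it off by phosphorylation. Pdhb, a subunit of the first enzyme, gave 0.0463 ± 0.0748 and 0.0134 ± 0.0748 in the 2 age comparisons. Dld, the third enzyme, which the oxoglutarate complex shares, gave 0.0468 ± 0.0756 and -0.0604 ± 0.0756, and Pdhx, the subunit that binds it, gave -0.036 ± 0.0724 and -0.0789 ± 0.0724. The values of the kinases had opposite signs: Pdk1 gave -0.0534 ± 0.0735 and 0.0819 ± 0.0735, and Pdk3 gave 0.0455 ± 0.0693 and -0.0798 ± 0.0693. By p, Pdk1 was among the first 3 of the positive members in the comparison of oldest with young adult. By sex, 5 of 5 clones were higher in males (4 or 5 with 1 mouse left out), by 0.0159 to 0.0533 array SD, with standard errors of 0.049 to 0.0534.

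The Krebs cycle group held 24 clones of 12 genes, among them the cytosolic enzymes Mdh1 and Aco1 beside the mitochondrial ones. Its 2 clones with an unadjusted p under 0.05 between oldest and young adult (limma) were both of Mdh1. Of the 24 clones, 15 were higher in young adults than in the youngest (median 0.0133). Between young adult and oldest, 14 were lower in the oldest (median -0.0179). With 1 mouse left out these counts ran from 11 to 16 and from 13 to 18, and the first median was 0.0065 with the values as deposited and 0.0209 without the mice with outlying arrays. Mdh1, the cytosolic malate dehydrogenase of the malate-aspartate shuttle, had 3 clones, on chromosome 11, that did not go together. Spot 711 had scores of 0.131, 0.285 and 1.10 (lowest, median and highest) at 169 to 194 days and -0.192, 0.114 and 0.216 at 704 to 743 days. The value of 1.10 belongs to the male of round 2, and the next highest young adult male had 0.381. The difference was -0.272 ± 0.0837 (unadjusted p = 0.00238, adjusted p = 0.9997 by limma), negative in 10 of 10 couples and all 5 rounds (-0.683 to -0.118), and -0.185 without that male. Spot 5471 had scores of 0.242, 0.604 and 0.786 in young adults and 0.169, 0.419 and 0.556 in the oldest. It differed by -0.156 ± 0.0741 (unadjusted p = 0.0424), again in 10 of 10 couples. The clone of highest mean score, spot 6481, went the other way: 1.58, 1.88 and 2.06 in young adults and 1.86, 1.96 and 2.06 in the oldest, a difference of 0.117 ± 0.0816 (7 of 10 couples).

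For Mdh1 between the youngest and young adults, the same clones gave -0.066 ± 0.0816 (spot 6481), 0.00628 ± 0.0741 (spot 5471) and 0.092 ± 0.0837 (spot 711). The slope of spot 711 was -0.107 ± 0.0406 array SD per year (unadjusted p = 0.0117, adjusted p = 0.937 by limma), the lowest p of any member, and that of spot 6481 was 0.0295 ± 0.038. Across the 40 mice, spots 5471 and 711 correlated at r = 0.349 (rho = 0.309) and spots 6481 and 5471 at r = -0.384 (rho = -0.338). Permutation p-values of these were 0.0259 (0.0529 for rho) and 0.0145 (0.0336), and after adjustment over 15 pairs of clones 0.0969 (0.162) and 0.0725 (0.162). Without the 2 mice farthest from the median of the brighter clone of each pair, r was 0.401 and -0.399. Within rounds r ran from -0.0166 to 0.616 (median 0.409) and from -0.763 to 0.522 (median -0.0474). The permutations took no account of round. Which of the 3 clones tracks the transcript cannot be told from these values.

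**Figure D3:**
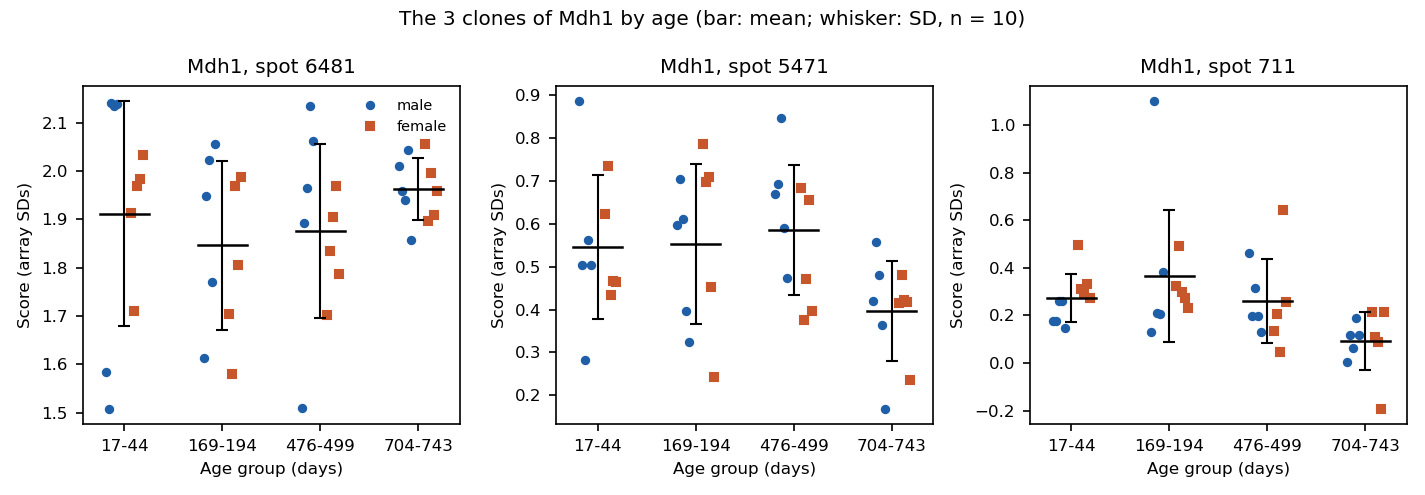
Score in array SDs of each mouse for the 3 clones of Mdh1 in the 4 age groups, males as circles and females as squares, with the mean (bar) and SD (whisker) of 10 mice. Spots 5471 and 711 have their lowest means at 704 to 743 days (0.396 and 0.0931), while spot 6481 has its highest mean there (1.96), and 1 young adult male stands at 1.10 for spot 711.

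Cs, citrate synthase, which opens the cycle by joining acetyl-CoA to oxaloacetate, had 2 clones. Spot 63 was lower in young adults than in the youngest, a difference of -0.135 ± 0.075 (8 of 10 couples, unadjusted p = 0.0787) and had a slope of -0.0815 ± 0.0398 per year (unadjusted p = 0.0467, adjusted p = 0.937 by limma). It was also the only member with an unadjusted p under 0.05 for a male-female gap changing with age (F = 4.21, unadjusted p = 0.0113, adjusted p = 1.0 by limma), followed by Ldhb (F = 2.83, unadjusted p = 0.0511) and Dlst spot 15682 (F = 2.43, unadjusted p = 0.0797; F = 1.01 without the mice with outlying arrays). At 169 to 194 days the 5 males had Cs scores of 0.521, 0.517, 0.593, 0.494 and 0.621 in rounds 1 to 5, and the 5 females 0.933, 0.882, 1.41, 0.761 and 0.663. Every female lay above every male at that age. At 704 to 743 days the males had 0.892, 0.474, 0.829, 0.695 and 0.89, and the females 0.86, 0.768, 0.432, 0.434 and 0.555, so the means had crossed (0.756 ± 0.177 in males and 0.61 ± 0.196 in females) and the sexes overlapped. Spot 6493 of the same gene gave F = 0.147 (unadjusted p = 0.931), with 0.017 ± 0.0697 and 0.0148 ± 0.0697 in the age comparisons, and the 2 clones correlated at r = 0.104 over the 40 mice (rho = 0.0759, permutation p = 0.52 and 0.64, adjusted 0.694 and 0.8).

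The isocitrate dehydrogenases oxidise isocitrate, Idh3a and Idh3g as subunits of the NAD enzyme and Idh2 as the mitochondrial NADP enzyme. Idh3a spot 1333 had scores of 0.309, 0.581 and 0.781 (lowest, median and highest) in the youngest and 0.199, 0.408 and 0.619 in young adults. That is a difference of -0.152 ± 0.0737 (unadjusted p = 0.0454, adjusted p = 0.933 by limma) in 8 of 10 couples, with overlapping groups. The other Idh3a clones were on the other side of 0: 0.0461 ± 0.0712 at spot 7287 and 0.0505 ± 0.0781 at spot 392. The slope of spot 7287, 0.0441 ± 0.0328 per year, had 1 of the 3 lowest p among positive slopes. Idh3g gave -0.0342 ± 0.0523 and 0.0311 ± 0.0486 at its 2 clones, with the narrowest spread of any member at spot 9234 (SD 0.0875). Idh2 gave 0.114 ± 0.133 and -0.177 ± 0.133, and its scores ranged from 0.055 to 1.26.

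Among the steps from oxoglutarate onward, no clone other than those of Mdh1 had an unadjusted p under 0.05 (limma) in the 2 age comparisons. Ogdh, the first enzyme of the oxoglutarate dehydrogenase complex, gave -0.0176 ± 0.0834 and -0.105 ± 0.0834. Dlst, the second enzyme of that complex, had 4 clones, with -0.035 to 0.0386 in the first comparison and -0.135 to 0.0222 in the second. Sucla2 and Suclg2, the subunits of succinyl-CoA synthetase that set its use of ADP or GDP, gave -0.0376 to 0.0888 in the first comparison and -0.0762 to 0.0293 in the second over 4 clones. Fh1, fumarase, gave 0.138 ± 0.0816 (6 of 10 couples) between youngest and young adult, the third lowest p among positive members, and -0.0506 ± 0.0816 after it. Mdh2, the mitochondrial malate dehydrogenase, gave -0.0144 ± 0.0705 and 0.00623 ± 0.0705 at spot 12015, and -0.0524 ± 0.051 and -0.0728 ± 0.051 at spot 8644. Aco1, the cytosolic aconitase that also binds RNA as an iron sensor, gave 0.024 ± 0.0846 and 0.00741 ± 0.0846.

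Between males and females the widest gap was at Pkm. Spot 3110 had scores of -1.70, -1.30 and -0.888 (lowest, median and highest) in 20 males and -1.40, -1.18 and -0.869 in 20 females, a difference of -0.2 ± 0.0614 array SD (unadjusted p = 0.00234, adjusted p = 0.76 by limma). Males were lower in 15 of 20 couples, in all 5 rounds (-0.341 to -0.0856) and in each age group (-0.346 to -0.135), while the ranges overlapped. This clone was among the dimmest 25% (percentile 8.3). Spot 3066 of Pkm went the same way, -0.105 ± 0.0728 (14 of 20 couples, unadjusted p = 0.158), with scores from -0.939 to 0.513 in males and from -0.494 to 0.0473 in females. Those 2 clones correlated at r = 0.301 and rho = 0.395 (permutation p = 0.0599 and 0.012, adjusted 0.18 and 0.0898), and r = 0.521 without the 2 mice farthest from the median.

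Tpi1 was higher in males by 0.119 ± 0.0429 (unadjusted p = 0.00831, adjusted p = 0.982 by limma), in 15 of 20 couples and all 5 rounds (0.102 to 0.159). Without the 5 mice of 17 to 21 days the difference was 0.0637. Its males had scores of -0.671, -0.446 and -0.185 and its females -0.826, -0.563 and -0.252, again overlapping. Pfkfb2 was lower in males, a difference of -0.107 ± 0.0465 (unadjusted p = 0.0266, adjusted p = 0.982), in 13 of 20 couples, with 0.679, 0.996 and 1.16 in males and 0.868, 1.04 and 1.30 in females. Ogdh came next by p among the negative values, at -0.109 ± 0.059 (13 of 20 couples), and Dlst spot 11675 was the last of the 3 lowest p among the positive ones, at 0.0671 ± 0.053 (0.0272 without the male of round 5 at 17 to 44 days). Cs spot 63 gave -0.0976 ± 0.053 and Idh3a spot 392 gave -0.0977 ± 0.0552. For the key enzymes Ldha, Ldhb, Hk1, Pcx, Idh2, Mdh1 and Mdh2, the sex difference lay between -0.0327 and 0.0341. Over all members 28 were higher and 23 lower in males (median 0.00522, or 0.0115 with the values as deposited), against 50.83% lower over all clones.

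**Figure D4:**
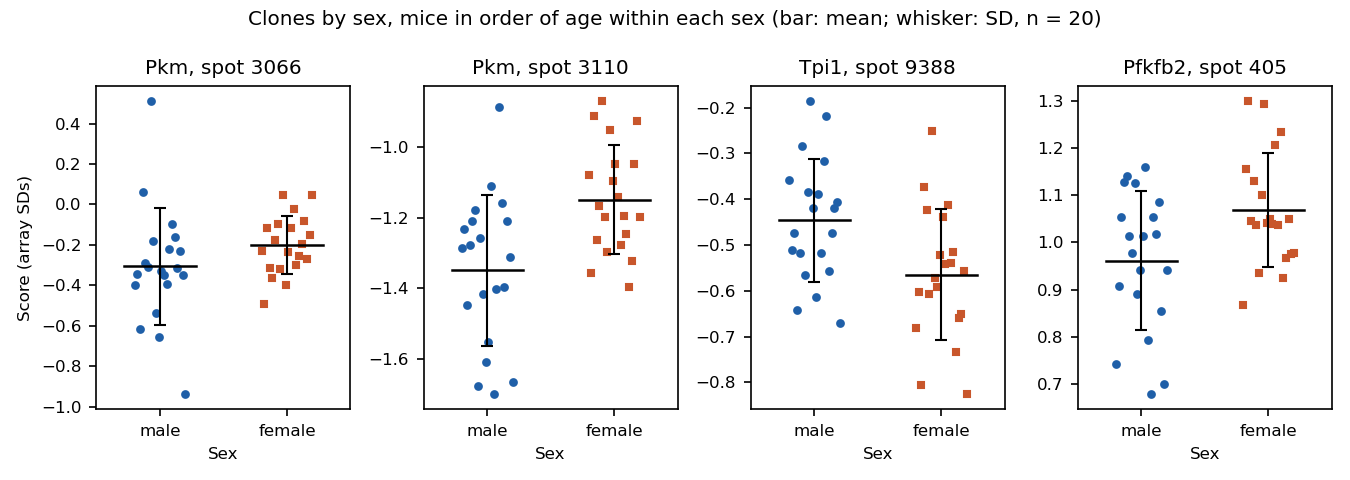
Score in array SDs of each mouse for both Pkm clones, Tpi1 and Pfkfb2 by sex, mice in order of age from left to right within each sex, with the mean (bar) and SD (whisker) of 20 mice. Males average lower for Pkm spot 3110 (-1.35 against -1.15) and Pfkfb2 (0.961 against 1.07) and higher for Tpi1 (-0.446 against -0.565), with ranges that overlap in every panel.

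Weaning falls near the age of the younger juveniles, and gluconeogenesis is known to change around it. The comparison of 33-44 with 17-21 days rests on 5 mice each (2 males and 3 females at 17 to 21 days, 3 males and 2 females at 33 to 44 days). Its median standard error for members was 0.103. Both juveniles of round 3 were 17 to 21 days old and both of round 5 were 33 to 44 days old. In the other rounds the younger and the older juvenile differed in sex. This comparison is therefore partly mixed with round, for which the main fit had no term. Both members with an unadjusted p under 0.05 were clones of Dlst, with opposite signs. Spot 13730 had -0.423, -0.397 and -0.374 in females and -0.469 and -0.482 in males at 17 to 21 days. At 33 to 44 days it had 0.0533, -0.374 and -0.348 in males and -0.431 and -0.215 in females, a difference of 0.17 ± 0.0774 (unadjusted p = 0.0336, adjusted p = 0.998 by limma). Without the male of round 5, the mouse at 0.0533, it was 0.091. Dlst spot 15682 had -0.556, -0.457 and -0.578 in females and -0.63 and -0.673 in males at 17 to 21 days. At 33 to 44 days it had -0.706, -0.847 and -0.565 in males and -0.855 and -0.719 in females, a difference of -0.16 ± 0.0784 (unadjusted p = 0.0477). Its older juveniles were lower except for 1 male of 44 days. The gluconeogenic clones moved by -0.0304 to 0.0867, with Pcx at 0.058 ± 0.0935 and Pck2 at 0.0145 ± 0.125. Other members named by rank were Pfkfb2 (0.127 ± 0.0897), Sucla2 spot 5321 (0.139 ± 0.0919), Cs spot 6493 (-0.176 ± 0.093) and Pfkp (-0.143 ± 0.0833). Cs spot 6493 had 1 female of 33 days at -0.613, and the difference was -0.0677 without it. Leaving out the male of round 4 took Pfkfb2 to 0.0763, and leaving out the male of round 5 took Pfkp to -0.0938. With array weights Pfkp was -0.0804 and Dlst spot 13730 0.0918, without the mice with outlying arrays they were -0.0628 and 0.0959, and with round as a block Pfkfb2 was 0.201.

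At the median, round (a block of serial numbers that no label explains) took a larger share of a member's variation than age or sex. The median share of a clone's sum of squares was 15.5% for round, 5.77% for age group and 0.838% for sex in members, and 18.4%, 5.55% and 1.25% in all clones. Degrees of freedom alone would give 10.3%, 7.69% and 2.56%. Ldha had the largest share for age among members (42.5%), followed by Gapdh (28.2%) and Mdh1 spot 711 (24.3%). Pkm spot 3110 had the largest for sex (23.2%), and Dlst spot 3280 had the largest for round (68.3%). Mean scores were highest at 169 to 194 days in 15 members (29.4%, against 21.09% of all clones) and at 476 to 499 days in 15 (29.4% against 23.58%). They were highest at 17 to 44 days in 13 (25.5% against 30.34%) and at 704 to 743 days in 8 (15.7% against 24.99%).

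**Figure D5:**
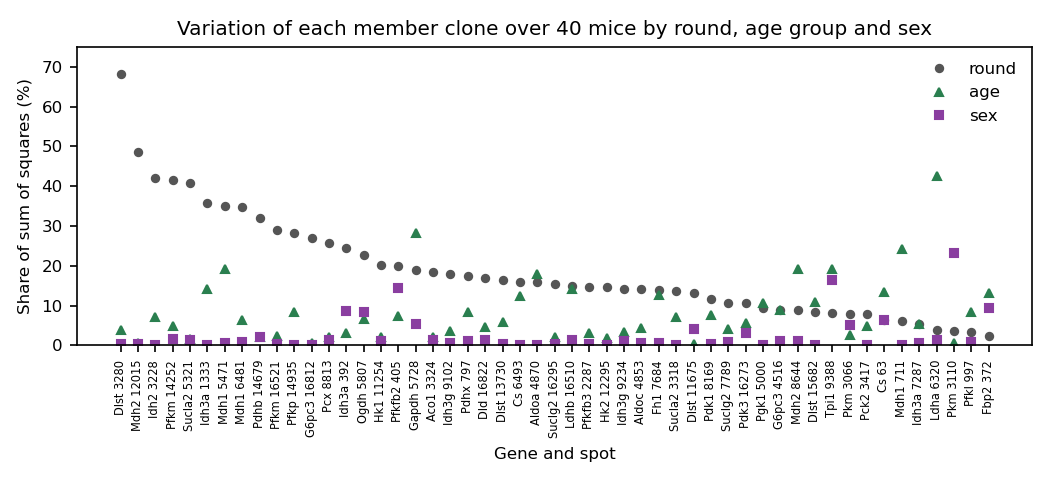
Share in percent of each member clone's variation over 40 mice that lies between rounds (circles), age groups (triangles) and sexes (squares), clones in order of the share of round. Dlst spot 3280 reaches 68.3% for round, Ldha 42.5% for age and Pkm spot 3110 23.2% for sex.

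Clones named for the same gene on the same filter set tended not to follow each other across mice. Over 15 pairs of 9 genes the median correlation was -0.0667 and the range -0.384 to 0.433, with 5 pairs above 0 and 0 with an adjusted permutation p under 0.05 for Pearson's r. Pfkm came nearest: r = 0.424 (permutation p = 0.00699, adjusted 0.0725) and rho = 0.69 (permutation p = 1e-05, the smallest the resamples can give, adjusted 0.00015), with r = 0.797 without the 2 mice farthest from the median. Within rounds its r ran from -0.7 to 0.943. For Dlst spots 11675 and 13730, r = 0.433 (adjusted 0.0725) became 0.05 without the 2 mice farthest from the median, and rho was 0.163 (adjusted 0.638). Where a gene has a single clone, as Ldha, Gapdh and Tpi1 do, no second clone bears on its values.

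Genes of the same pathways that the rule left out or did not reach gave 1 call. Me1, the cytosolic malic enzyme that turns malate into pyruvate with NADPH, was higher in males at spot 4063 by 0.31 ± 0.0662 (limma adjusted p = 0.0321), in 18 of 20 couples. The difference stayed between 0.268 and 0.334 with any 1 of the 40 mice left out, but the call was lost in 16 of these 40 fits (limma adjusted p of 0.0101 to 0.0729), and without the 5 mice of 17 to 21 days (0.343, adjusted p = 0.103). Its other 3 clones gave 0.186, 0.183 and 0.0431 in the same direction and did not pass. Of the 11 clones of the pyruvate and malate shuttle list (7 of 12 listed genes), 8 were higher in males, and 1 of 11 was called. For the Krebs and pyruvate dehydrogenase genes outside the rule (succinate dehydrogenase, Dlat, Pdha1, Idh3b and Suclg1), 10 of 12 clones were lower in the oldest than in young adults, with a median of -0.0919, and 0 were called (limma). Only Idh3b met an unadjusted p under 0.05 there, at -0.155 ± 0.0716 (10 of 10 couples).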

How the data were processed

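Whole-kidney RNA of 40 mice was measured on 80 nylon filters, 2 per mouse, with a 33P label per the labels' protocols. The deposited values are scores: in each column the authors' values had mean 0 and SD 1. The scale before that step, the image reading and the background are not given in the sources used, so no difference can be read as a fold. Each set held 8448 clones, none of them missing a value, and 0 columns were left out. The description of 1 male (714 days) points to a different animal than its title, and its sex and age tags were used.

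Members and lists were chosen with earlier results of these data known. A table was to be kept as deposited only if array medians and interquartile ranges lay within 5% of each other; ranges departed by up to 7.63% (set A) and 4.21% (set B) and set B medians ran from -0.05 to 0.05, so both sets were quantile normalized separately. Each set was fitted with limma 3.58.1 in R 4.3.3 (lmFit, eBayes) on all 40 mice, with p-values adjusted by Benjamini-Hochberg across all 16896 clones (called at an adjusted p under 0.05). The slope was per 365 days with sex as a term. The age, sex and sex-by-age contrasts (F test on 3 df) came from the 8 group means, and 33-44 minus 17-21 days from 5 age classes plus sex. Fits were tested on simulated data.

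Clones were named from GEO's platform table and are numbered as its spots; all 51 members matched RefSeq identifiers (GRCm38.p6). A cDNA clone can hybridise with close relatives of its gene, such as copies of Gapdh, so such members are uncertain. Rounds were inferred from title serial numbers, which no label explains. Nothing says whether mice of a round were handled together. No mouse had a repeat filter of a set, so p-values measure the spread between mice together with that between their arrays. The main fits left round in that spread. Full values were given for the 3 lowest p in each direction per comparison, members with an unadjusted p under 0.05 and a list of key enzymes, with all other members more briefly; for the slope, the varying sex difference and the juvenile split, key enzymes are given only where ranked. Correlations used 100000 permutations (two-sided) in Python 3.11.15. Outlying arrays were those over 1.5 interquartile ranges below the lower quartile of mean correlation.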

Additional observations from a re-analysis of the deposited data

Results flagged for a closer look

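In 20 of 264 groups of 5 mice (33 clones named in some comparison, 8 groups each), 1 mouse stood apart from the other 4 by Dixon's test at the 95% level, which chance gives in about 1 of 20 groups. The clones checked were settled after a first count on fewer clones had been seen. Mdh1 spot 711 had 1.10 in the male of round 2 at 169 to 194 days, where the other males of that age had 0.131 to 0.381. In the female of round 1 at 17 to 44 days Mdh1 spot 711 had 0.498, against 0.271 to 0.331 in its group. For Pkm spot 3066, the male of round 1 at 704 to 743 days stood at -0.939 and the rest of the group at -0.350 to -0.160. Me1 spot 4063 had -0.846 in the male of round 3 at 704 to 743 days, where the other males of that age had -0.575 to -0.475. In the male of round 5 at 704 to 743 days Aldoc spot 4853 had 1.41, against 1.64 to 1.73 in its group. For Aldoc spot 4853, the female of round 4 at 17 to 44 days stood at 1.37 and the rest of the group at 1.67 to 1.78. Mdh1 spot 5471 had 0.235 in the female of round 5 at 704 to 743 days, where the other females of that age had 0.416 to 0.481. In the female of round 1 at 704 to 743 days Ogdh spot 5807 had 1.18, against 1.37 to 1.45 in its group. For Cs spot 6493, the female of round 5 at 17 to 44 days stood at -0.613 and the rest of the group at -0.137 to 0.0238. Fh1 spot 7684 had 0.0660 in the female of round 4 at 704 to 743 days, where the other females of that age had -0.165 to -0.0990. In the male of round 4 at 17 to 44 days Pcx spot 8813 had -0.608, against -0.299 to -0.203 in its group. For Pcx spot 8813, the male of round 4 at 476 to 499 days stood at -0.392 and the rest of the group at -0.179 to -0.0917. Tpi1 spot 9388 had -0.252 in the female of round 5 at 169 to 194 days, where the other females of that age had -0.608 to -0.521. In the female of round 2 at 17 to 44 days Hk1 spot 11254 had -0.497, against -0.364 to -0.330 in its group. For Dlst spot 11675, the male of round 5 at 17 to 44 days stood at 1.11 and the rest of the group at 0.122 to 0.399. Dlst spot 13730 had 0.0532 in the male of round 5 at 17 to 44 days, where the other males of that age had -0.482 to -0.348. In the female of round 5 at 17 to 44 days Dlst spot 13730 had -0.215, against -0.431 to -0.374 in its group. For Pfkm spot 14252, the male of round 5 at 169 to 194 days stood at -0.176 and the rest of the group at -0.924 to -0.730. Pfkm spot 14252 had -1.35 in the female of round 4 at 704 to 743 days, where the other females of that age had -0.765 to -0.588. In the female of round 2 at 17 to 44 days Pfkp spot 14935 had -0.126, against -0.440 to -0.396 in its group. Several of these mice are among the 5 with an outlying array, and the clones named here lie on that filter: the male of round 5 at 17 to 44 days (Dlst spots 11675 and 13730), the female of round 5 at 169 to 194 days (Tpi1) and the female of round 4 at 704 to 743 days (Pfkm spot 14252). Fh1 lies on the other filter of the last mouse, which was not outlying. The part of array quality in these values was not tested.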

How the results depend on the processing

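No member was called under any of the 288 combinations of comparison and alternative: values as deposited, round as a block, array weights, no dimmest 25%, a trended robust variance, no mice of 17 to 21 days, no outlying arrays, adjustment within each set, log2 of age (slope only) and each of the 40 mice left out in turn. The lowest adjusted p of a member over all of them was 0.205 (Pkm spot 3110 by sex, 1 mouse left out; limma). Results of the named members and of Me1 kept their sign (F tests have none) and their side of the threshold in 6334 recomputations and reversed in 206; the Me1 call was lost in 17; the 14 signed differences of members with an unadjusted p under 0.05 kept their sign in all. Those that reversed were differences of key enzymes named whatever their values, and the cause was not tested (a spot number follows each gene). With array weights these were, for young adult minus youngest Pfkl 997 -0.0235, Ogdh 5807 0.00708, Pfkm 14252 -0.00464 and Pfkm 16521 -0.000104. For oldest minus young adult the values were Pkm 3066 0.0513, Cs 6493 -0.0139, Mdh2 12015 -0.0206 and Pfkm 14252 0.0781. For the slope the values were Pfkm 16521 -0.0187. For male minus female the values were Idh2 3228 0.0222, Cs 6493 0.00147, Mdh2 8644 -0.00288, Pfkp 14935 0.0123 and Pfkm 16521 0.0805. For 33-44 minus 17-21 days the values were Pkm 3066 -0.0873, Idh2 3228 0.0985, Mdh1 5471 -0.00413, Gapdh 5728 0.0118, Ogdh 5807 -0.0320, Hk1 11254 -0.0389 and Ldhb 16510 0.0540. Without the 5 mice with outlying arrays they were, for young adult minus youngest Pfkl 997 -0.0115 and Ogdh 5807 0.00233. For oldest minus young adult the values were Pkm 3066 0.0304, Cs 6493 -0.0216, Mdh2 12015 -0.0144, Pfkm 14252 0.0440 and Pfkm 16521 -0.0800. For the slope the values were Pfkm 16521 -0.0562. For male minus female the values were Idh2 3228 0.0428, Mdh1 5471 -0.0125, Mdh2 12015 0.00656, Pfkp 14935 0.0419 and Pfkm 16521 0.113. For 33-44 minus 17-21 days the values were Pkm 3066 -0.0165, Mdh1 5471 -0.0494, Gapdh 5728 0.0246, Hk1 11254 -0.0471 and Ldhb 16510 0.0722. Without the 5 mice of 17 to 21 days they were, for young adult minus youngest Pfkl 997 -0.0293, Pkm 3110 0.00838, Hk1 11254 -0.00269, Mdh2 12015 0.0467 and Ldhb 16510 -0.00728. For the slope the values were Pkm 3066 -0.00884 and Mdh2 12015 0.0106. For male minus female the values were Mdh1 6481 -0.0296, Cs 6493 0.00653 and Mdh2 12015 0.0141. With the values as deposited they were, for young adult minus youngest Hk1 11254 -0.00300 and Ldhb 16510 -0.00400. For 33-44 minus 17-21 days the values were Hk1 11254 -0.000303. With log2 of age in place of age they were, for the slope Pcx 8813 0.00315. With round as a block, the nearest fit to a replicate block, they were, for 33-44 minus 17-21 days Ldha 6320 -0.0300, Hk1 11254 -0.0133 and Ldhb 16510 0.0118. With 1 mouse left out at a time, some values crossed 0. For young adult minus youngest the ranges were Pfkl 997 -0.0246 to 0.0519, Mdh1 5471 -0.0267 to 0.0485, Ogdh 5807 -0.0595 to 0.0260, Cs 6493 -0.0400 to 0.0404, Hk1 11254 -0.0331 to 0.0565, Mdh2 12015 -0.0622 to 0.0215 and Ldhb 16510 -0.0318 to 0.0326. For oldest minus young adult the ranges were Cs 63 -0.0899 to 0.00327, Pkm 3066 -0.105 to 0.0413, Pkm 3110 -0.0396 to 0.0316, Cs 6493 -0.00865 to 0.0367, Mdh2 12015 -0.0153 to 0.0360, Pfkm 14252 -0.107 to 0.00558, Pfkp 14935 -0.0389 to 0.0109 and Pfkm 16521 -0.108 to 0.0898. For the slope the ranges were Pkm 3066 -0.00217 to 0.0461, Pcx 8813 -0.0226 to 0.00266, Mdh2 12015 -0.0198 to 0.00657, Pfkm 14252 -0.00783 to 0.0480 and Pfkm 16521 -0.0314 to 0.0560. For male minus female the ranges were Mdh1 711 -0.0529 to 0.0146, Idh2 3228 -0.0469 to 0.0274, Mdh2 12015 -0.0324 to 0.00881, Pfkp 14935 -0.0218 to 0.0110 and Pfkm 16521 -0.0672 to 0.0274. For 33-44 minus 17-21 days the ranges were Pkm 3066 -0.0672 to 0.0991, Idh2 3228 -0.100 to 0.0802, Mdh1 5471 -0.0435 to 0.0854, Gapdh 5728 -0.0522 to 0.0452, Ogdh 5807 -0.0656 to 0.0900, Ldha 6320 -0.0425 to 0.0526, Pcx 8813 -0.0262 to 0.110, Hk1 11254 -0.102 to 0.0739 and Ldhb 16510 -0.0681 to 0.0122. The split of the youngest mice could not be fitted without the 5 mice of 17 to 21 days. Precision is limited by the number of arrays; the background level, which would bear on the 7 members among the dimmest 25%, was not used here.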

Other observations

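Genes around the members gave no call other than Me1. In the glycogen list (7 of 10 genes, among them Gbe1, the branching enzyme, and Pygl, the liver phosphorylase), 5 of 7 clones were higher in the oldest than in young adults, with a median of 0.0104 array SD. The non-oxidative pentose phosphate enzymes Rpia, Taldo1 and Tkt had 6 clones, of which 5 were lower in males (median -0.0239). Glud1, glutamate dehydrogenase, which feeds the Krebs cycle from glutamate, was lower in males by -0.16 ± 0.0538 at spot 5523 (16 of 20 couples, unadjusted p = 0.00514, adjusted p = 0.982 by limma). Of the regulators with a clone (Creb1, Foxo1, Hif1a, Nr3c1 and Ppara), 5 of 6 clones were lower in young adults than in the youngest (median -0.0494), and 0 met an unadjusted p under 0.05 or were called (limma). The glucose transporters Slc2a4 and Slc2a5 differed in sign in both age comparisons.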
